A study of Mus musculus with 192 samples.

Results

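The genes described here code for the proteins of the cytosolic ribosome, which translates the mRNAs of the cytoplasm. Members were the protein-coding genes whose symbol starts with Rpl or Rps followed by a number, with at most 1 closing letter a, x, y or l, together with the stalk protein genes Rplp0, Rplp1 and Rplp2. The rule gave 79 of the 21906 protein-coding gene identifiers in the tables, 49 of the large subunit and 30 of the small subunit, and it left out 3 matching symbols that the annotation calls pseudogenes (Rpl32l, Rpl6l and Rps4l). The fraction tables used here listed 53 of the 79, and the other 26 lie on chromosomes 7, 8, 9 and X, for which the fraction tables had no rows.

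The study followed wild-type E14 mouse embryonic stem cells of strain 129/Ola as they left pluripotency. Cells at 0 h came from medium with a MEK inhibitor, a GSK3 inhibitor and LIF, which holds them in the naive state, and with additional insulin. The later cells were kept in N2B27 basal medium without these additions and with all-trans retinoic acid (RA) at 0.25 µM, with fresh medium after 48 h. No library used here came from the changed medium without RA, so the medium change and RA cannot be told apart. Cytoplasmic and nuclear RNA of 3 differentiation runs, numbered 5, 6 and 7, were sequenced before RA (0 h), after 6 and 12 h, after 24, 36 and 48 h, and after 72 and 96 h (48 libraries), and total poly(A) RNA of unsorted cells gave 14 libraries. Cells sorted at 96 h on PDGFRA and CD24 into extraembryonic endoderm-like (XEN) and ectoderm-like (ECT) cells gave 1 library each.

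A ribosome holds 1 copy of nearly every one of these proteins, and cells make them in matched amounts, much of it through a shared control of translation. Their mRNAs are among the most abundant of a dividing cell and most start with a C followed by a run of pyrimidines, the 5′ terminal oligopyrimidine (TOP) tract, through which the mTOR pathway and LARP1 set how much they are translated. Most members are short genes with many processed pseudogenes, so that reads of a member and of its copies can be hard to tell apart.

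Depth and library differences were as follows. Summed expected counts ran from 9119521 to 21652601 per cytoplasmic library, from 6860451 to 30624948 per nuclear library and from 12653980 to 36364330 per total RNA library. The mean fragment length of a library, read from the deposited effective lengths, was under 350 bases in 4 of 24 cytoplasmic libraries (run 5 at 0, 6, 12 and 72 h) and in 10 of 24 nuclear libraries, 8 of which were the whole of run 7. In total RNA, the 36 h and 48 h libraries of replicate 1 differed by only 1.2 times the sampling noise, less than any other pair of libraries compared. Sorted groups follow the titles, since the sort label of the library titled ECT is the gate that the protocol gives for XEN, and the reverse. Pdgfra read 677 CPM (counts scaled to a fixed library total) in the library titled XEN and 224 in the library titled ECT, and Cd24a read 18.9 and 705. All comparisons are between bulk samples, in which fewer cells of a type and less RNA per cell cannot be told apart.

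The windows around the annotated starts show which members have the TOP form close to that start. RefSeq starts were found for 59 of the 79 members, and 28 of them (47.5%) had, on the strand of the gene, a C within 5 bases of the annotated start that was followed by at least 4 pyrimidines. The same form stood at 21.2% of the 27025 genes with a window and at 17 of 69 mitochondrial ribosomal protein genes (24.6%). An annotated start can lie some bases from the start in use in these cells, so a window without the letters is only that. The windows below run from 10 bases before to 20 bases after the start (build GRCm38.p6, RefSeq), 5′ to 3′. Capitals mark the run that met the form, from its C within 5 bases of the start. Pyrimidines can also precede the capitals, as in Rpl7a. The first 5 are members with the form, and the last 3 are the stalk protein gene Rplp0 and the paralogs Rpl10l and Rpl39l, which are described below. These 3 had no such run within 5 bases of the annotated start, although their windows hold runs of this kind farther from it.
Rpl38: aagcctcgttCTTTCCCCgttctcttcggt
Rps24: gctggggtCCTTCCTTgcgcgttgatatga
Rpl12: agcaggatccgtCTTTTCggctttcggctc
Rpl7a: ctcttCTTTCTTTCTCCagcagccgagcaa
Rps2: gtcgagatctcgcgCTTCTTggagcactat
Rplp0: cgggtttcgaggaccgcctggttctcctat
Rpl10l: cctccattttgcggctggcggtgggcacgc
Rpl39l: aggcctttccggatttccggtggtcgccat
These lie at chr11:114668570-114668599 (Rpl38), chr14:24490668-24490697 (Rps24), chr2:32961702-32961731 (Rpl12), chr2:26910797-26910826 (Rpl7a), chr17:24720053-24720082 (Rps2), chr5:115559457-115559486 (Rplp0) and chr16:10170218-10170247 (Rpl39l) on the plus strand, and at chr12:66284382-66284411 (Rpl10l) on the minus strand.

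In cytoplasmic RNA the median of the ribosomal protein mRNAs lay below its 0 h level at all 7 later times, and with all libraries members were called lower from 24 h. No member passed the test at 6 or 12 h, whereas 11.7% and 12.7% of the 11817 genes tested were called lower then. At an unadjusted p under 0.05 there was 1 member at 6 h and 2 at 12 h, and DESeq2 called 1 lower at each of these times. At 24 h 24 of the 53 members were lower (16.5% of all genes), at 36 h 25 (19.9%), at 48 h 42 (23.0%), at 72 h 27 (27.8%) and at 96 h 42 (29.4%), and none was called higher at any time (edgeR's quasi-likelihood test, Benjamini-Hochberg adjusted p under 0.05). The median log2 fold change of the members against 0 h was −0.07 at 6 h, −0.27 at 12 h, −0.56 at 24 h, −0.60 at 36 h, −0.69 at 48 h, −0.56 at 72 h and −0.75 at 96 h. The median of all genes lay at 0.02 at 96 h, and all 53 members had a negative value at that time. Both subunits took part, with 28 of 35 large subunit members (median −0.75) and 14 of 18 small subunit members (median −0.79) called lower at 96 h. For 46 of the 53 members every 96 h library lay below every 0 h library, which held for 35.4% of all genes. The 7 comparisons share the 0 h libraries. Without run 6 the count at 96 h was 26, without run 5 it was 28 and without run 7 it was 49.

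The step at 24 h and the smaller count at 72 h moved with the fragment length of run 5, whose libraries were short at 0, 6, 12 and 72 h and long at 24, 36, 48 and 96 h. With long-fragment libraries alone (an alternative chosen after seeing the data, with 2 libraries at 0, 6, 12 and 72 h and 3 at the other times), 4 members were called lower at 6 h (10.2% of all genes), 19 at 12 h (13.2%), 43 at 24 h (19.0%), 42 at 36 h (22.1%), 48 at 48 h (25.2%) and 52 at 72 h (27.9%). Their median was −0.20 at 6 h, −0.29 at 12 h, −0.42 at 24 and 36 h, −0.54 at 48 h, −0.60 at 72 h and −0.55 at 96 h. Leaving out run 5 keeps the same cytoplasmic libraries at 0, 6, 12 and 72 h and changes which others enter the spread, and there 1 member was called lower at 6 h, 0 at 12 h (3 at an unadjusted p under 0.05) and 25 at 72 h. In run 6, whose cytoplasmic libraries were all long, the median change was −0.29 at 6 h, −0.42 at 12 h, −0.54 at 24 h, −0.95 at 72 h and −0.71 at 96 h. In run 7, also long throughout, it was −0.09, −0.15, −0.30, −0.26 and −0.44 at these times. The early calls thus depended on which libraries were fitted, while the medians at 12 h were below 0 in each run.

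**Figure D1:**
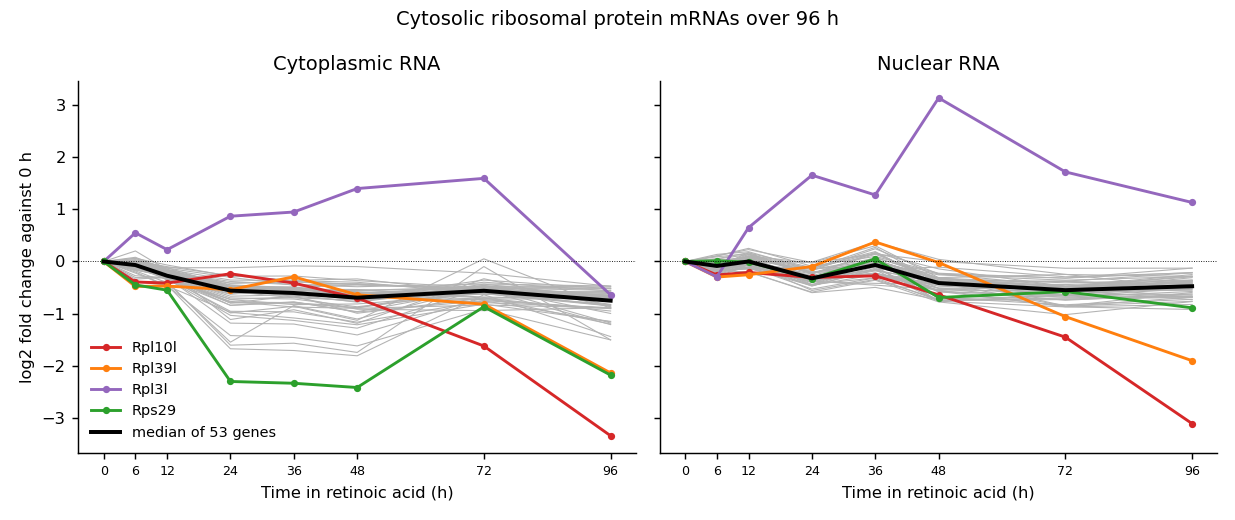
Log2 fold change of the 53 members listed in the fractions against 0 h (vertical axis) over time in retinoic acid in hours (horizontal axis), in cytoplasmic (left) and nuclear RNA (right). Each grey line is 1 gene as fitted over 3 runs, the black line is the median of the 53, which reached −0.75 in the cytoplasm and −0.47 in the nucleus at 96 h, and Rpl10l, Rpl39l, Rpl3l and Rps29 are in colour.

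The stalk of the large subunit, built from Rplp0, Rplp1 and Rplp2, recruits the elongation factors to the ribosome, and Rplp0 was the stalk gene listed in the fractions. Cytoplasmic Rplp0 read 2796, 2927 and 2726 CPM at 0 h in runs 5, 6 and 7, and 1924, 1927 and 2068 at 96 h. The groups did not overlap, and the mRNA fell by 0.51 ± 0.11 (SE) on the log2 scale (n = 3 runs, edgeR's quasi-likelihood test, Benjamini-Hochberg adjusted p = 7.6e-05). Rpl3, which lies close to the peptidyl transferase centre, read 2800, 2727 and 2654 CPM at 0 h and 1633, 1696 and 1916 at 96 h. Its fall of 0.64 ± 0.08 was also one without overlap. Among the members with the smallest changes at 96 h were Rpl7a (−0.48 ± 0.09), Rps2 (−0.49 ± 0.14), Rplp0 and Rpl9 (−0.52 ± 0.16), each a long-established core subunit protein, and these 4 were called lower. Rpl7a, whose start window is shown above with its tract, read 1960, 2065 and 1915 CPM at 0 h and 1401, 1412 and 1459 at 96 h.

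The largest fall was that of Rpl10l, an intronless paralog of the X-linked Rpl10 that is best known from the testis. Its cytoplasmic mRNA read 262, 304 and 298 CPM at 0 h and 32.9, 27.2 and 24.7 at 96 h, a fall of 3.34 ± 0.19 on the log2 scale (n = 3 runs, edgeR's quasi-likelihood test, Benjamini-Hochberg adjusted p = 1.1e-18). The fall came late, since the log2 change was −0.24 ± 0.17 at 24 h, −0.70 ± 0.17 at 48 h and −1.62 ± 0.17 at 72 h. Rpl39l, the paralog of Rpl39 and also known from the testis, read 96.3, 51.1 and 42.0 CPM at 0 h and 16.6, 15.1 and 10.9 at 96 h, without overlap, and fell by 2.14 ± 0.45. It was called at no earlier time in the cytoplasm. No pseudogene was assigned to either gene as a copy. The search gave each pseudogene to its best match only, and sharing of reads with Rpl10, Rpl39 or their copies was not examined. In TPM, which counts per length, Rpl10l stood at 484 ± 67.7 (SD, n = 3) at 0 h and 60.1 ± 9.3 at 96 h in the cytoplasm, and Rplp0 at 3248 ± 31.2 and 2794 ± 54.2. Rpl10l was thus a minor member at the start and lower still at the end. Rpl3l, the paralog of Rpl3 from striated muscle, stayed at or below 4.10 CPM in every cytoplasmic library and was called at no time there, although with long-fragment libraries alone and without run 5 it was called higher at 48 and 72 h.

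Several short mRNAs were among the next lowest values, and here the fragment length of the libraries moved with the values. Rps29, a small zinc-binding protein of the small subunit with an mRNA of 390 bases, read 398, 91.1 and 48.6 CPM at 0 h in libraries of mean fragment length 288, 374 and 413 bases, and 40.0, 36.0 and 42.5 CPM at 96 h in libraries of 377, 388 and 411 bases. The 0 h library of run 5 was highest by far, and the log2 change was −2.18 ± 0.86, a call that was lost without run 5 and without run 6. Rps28 (−1.50 ± 0.74) and Rpl38 (−1.44 ± 0.72), with mRNAs of 385 and 367 bases, had values of this size without passing the test. Rpl37, with a longer mRNA of 727 bases, did pass (−1.50 ± 0.59), but not without run 5 or without run 6. The shortest mRNA, that of Rps27 (346 bases), stood at −0.87 ± 0.55 and did not pass. Over all times, the 4 short-fragment cytoplasmic libraries read Rps29 between 239 and 398 CPM and the 20 others between 25.7 and 91.1. By the ratio of the medians of these libraries, the 6 members with an mRNA under 450 bases stood 4.06 times higher in the short-fragment libraries (median member), the 18 between 450 and 700 bases 1.87 times and the 29 over 700 bases 1.45 times. The times of the libraries differ too, so that time is mixed into these ratios.

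**Figure D2:**
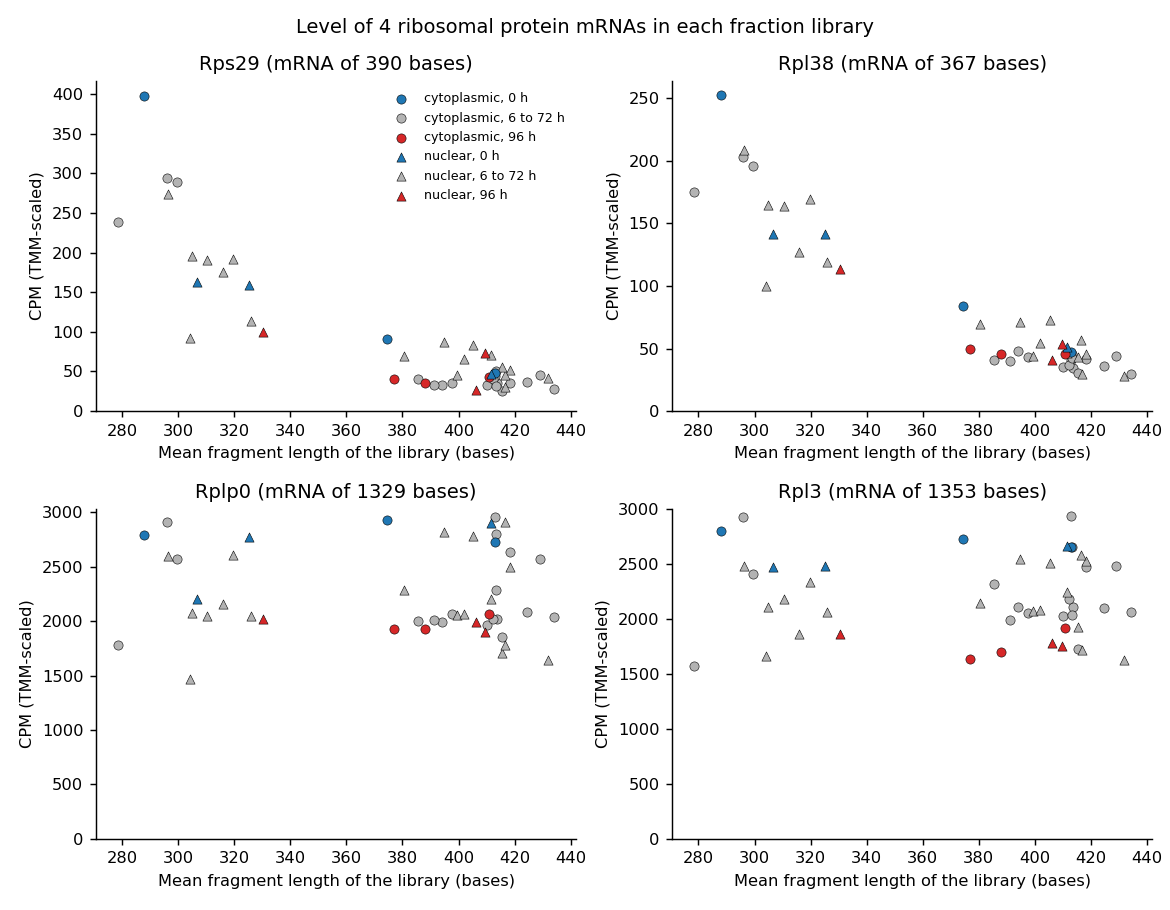
CPM of Rps29, Rpl38, Rplp0 and Rpl3 (vertical axes) against the mean fragment length in bases (horizontal axes) in each of the 48 fraction libraries. Circles are cytoplasmic and triangles nuclear, in blue at 0 h, red at 96 h and grey between. The 2 short mRNAs of 390 and 367 bases are highest in libraries under 350 bases, and by the ratio of medians Rplp0 and Rpl3 stand 1.31 and 1.24 times higher in short-fragment libraries in the cytoplasm and at 0.99 and 1.02 in the nucleus.

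With the 34 fraction libraries of mean fragment length 350 or more alone, the fall at 96 h of the members remained and became more even. In the cytoplasm 49 of 53 members were called lower at 96 h (31.1% of all genes), with a median of −0.55, and all 42 calls of the full set were among the 49. The 7 added were Rpl22, Rpl31, Rpl35, Rpl36, Rpl38, Rps26 and Rps28. Rps29 then stood at −0.82 ± 0.25, Rpl37 at −0.78 ± 0.15, Rps28 at −0.50 ± 0.19 and Rpl38 at −0.47 ± 0.18. With all libraries the median log2 change was −1.31 for the members under 450 bases, −0.83 for those of 450 to 700 bases and −0.68 for those over 700 bases, and with the long-fragment libraries it was −0.48, −0.53 and −0.59. Rplp0 (−0.52 ± 0.08), Rpl10l (−3.41 ± 0.12) and Rpl39l (−1.70 ± 0.21) kept their falls. Within runs, the median change was −1.04 in run 5, −0.71 in run 6 and −0.44 in run 7, whose 0 h and 96 h libraries had like fragment lengths, and 53, 52 and 53 of 53 members were lower.

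**Figure D3:**
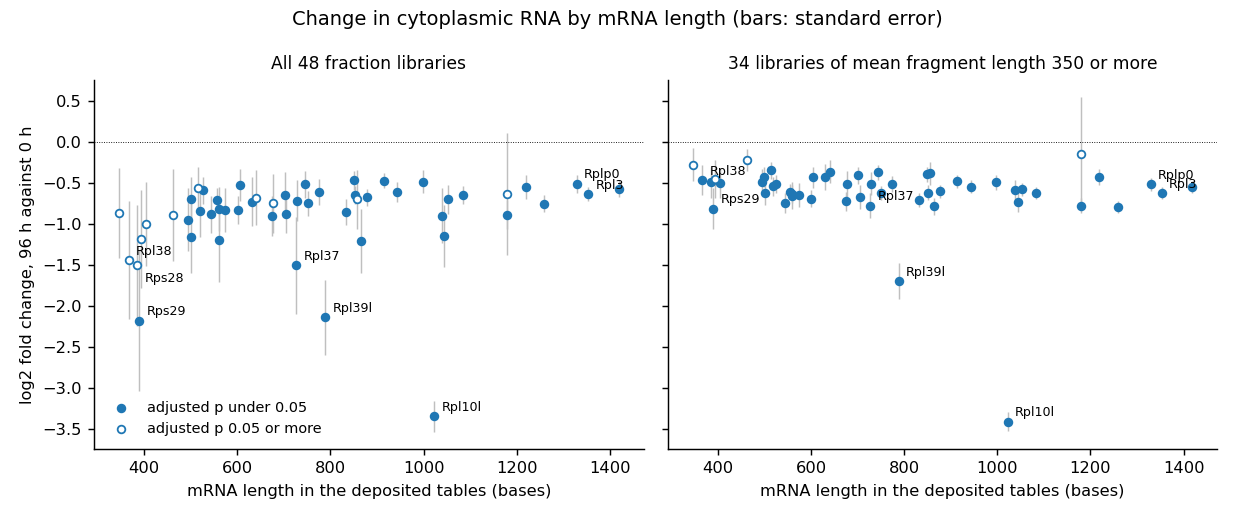
Log2 fold change at 96 h against 0 h in cytoplasmic RNA (vertical axis, bars are standard errors) against mRNA length in bases (horizontal axis) for the 53 members, with all 48 fraction libraries (left) and with the 34 of long fragments (right). Filled points have an adjusted p under 0.05 (42 on the left, 49 on the right), and the median of the members under 450 bases goes from −1.31 on the left to −0.48 on the right, where Rpl10l, Rpl39l and Rps29 (−0.82) have the 3 lowest values.

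In nuclear RNA fewer members than in cytoplasmic RNA passed the test at 24, 36, 48 and 96 h, and 1 more did at 72 h. None was called lower at 6 h (13.6% of all genes) or 12 h (16.5%), 11 of 53 at 24 h (18.2%), 6 at 36 h (23.2%), 19 at 48 h (24.8%), 28 at 72 h (28.8%) and 21 at 96 h (31.2%). A share of 6 in 53 at 36 h and none at 6 and 12 h is below that of all genes. At 6 and 12 h no member had an unadjusted p under 0.05 either, and DESeq2 called none. The 36 h library of run 6 was the one short-fragment library of that run in nuclear RNA (305 bases), and the median member of run 6 stood at 0.32 there, against −0.55 at 24 h. Without this library, an alternative chosen after seeing the data, 4 members were called lower at 36 h (20.4% of all genes) at a median of −0.17. The median log2 change was −0.09 at 6 h, 0.00 at 12 h, −0.32 at 24 h, −0.07 at 36 h, −0.41 at 48 h, −0.55 at 72 h and −0.47 at 96 h. For 19 of 53 members all 96 h libraries lay below all 0 h libraries, a share close to the 33.4% of all genes. With the long-fragment libraries 37 members were called lower at 96 h (28.8% of all genes) at a median of −0.45, and all 21 calls were among them, but that set holds 1 nuclear library at 0 h (run 6) and 2 at 96 h, and the lone library is assumed to vary like the other groups. Without run 5 the count was 13 and without run 6 it was 10. By mRNA length, the median at 96 h with all libraries was −0.60 under 450 bases, −0.53 for 450 to 700 bases and −0.40 over 700 bases. With the long-fragment libraries it was −0.06, −0.54 and −0.46, and 3 of the 6 members under 450 bases were negative. With effective length as an offset, over all libraries, these 6 stood at a median of −0.26.

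Rpl10l again fell most in nuclear RNA, from 254, 303 and 270 CPM at 0 h to 44.8, 30.3 and 21.2 at 96 h (log2 change −3.11 ± 0.19), and Rpl39l fell from 63.6, 41.1 and 82.0 to 18.7, 11.3 and 20.1 (−1.90 ± 0.45). Rpl34 and Rps24 were the next called members, at −0.92 ± 0.38 and −0.77 ± 0.23, whereas Rps29 (−0.89 ± 0.83) and Rpl37 (−0.82 ± 0.58) did not pass. Nuclear Rplp0 read 2201, 2899 and 2772 CPM at 0 h and 1897, 1994 and 2020 at 96 h, a fall of 0.41 ± 0.11. The values nearest to 0 or above it belonged to Rpl3l (1.13 ± 0.75), Rpl22 (−0.13 ± 0.25), Rpl7a (−0.13 ± 0.09) and Rpl21 (−0.21 ± 0.15), none of which passed. Rpl3l was the one member called higher, at 48 h (3.14 ± 0.75) and 72 h (1.72 ± 0.74). Its nuclear level was 0.395, 0.709 and 0.467 CPM at 0 h, 7.79, 3.64 and 2.99 CPM at 48 h and 2.05, 1.12 and 0.417 CPM at 96 h, so these are values near the detection limit of the libraries.

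The comparison of nuclear with cytoplasmic RNA asked which members stood relatively higher in either fraction. Levels are scaled within each library. A value thus sets a member against other genes and does not locate its mRNA. The paper also names the possibility that much cytoplasmic RNA stayed in its nuclear fraction. Over the 8 times, 6 members were called higher in nuclear RNA (13.9% of all genes) and 3 higher in cytoplasmic RNA (17.2%). The 6 were Rps14, a protein of the platform of the small subunit (0.33 ± 0.07), Rps15 (0.34 ± 0.09), Rpl41 (0.50 ± 0.20), Rpl10a, from the stalk beside the tRNA exit site (0.23 ± 0.06), Rps2 (0.21 ± 0.05) and Rps7 (0.14 ± 0.04). The 3 were Rpl7 (−0.15 ± 0.04), Rpl5, which carries the 5S rRNA (−0.14 ± 0.04), and Rpl6 (−0.13 ± 0.04). The differences were thus at most 1.42-fold. The fit had no term for run and took the 8 times of a run as independent libraries. The standard errors and the 9 calls thus do not allow for differences that a run carries through its times. No member was called at any single time, with 1 to 10 members at an unadjusted p under 0.05 at each. With the long-fragment libraries 14 members were called nuclear (17.5% of all genes) and 13 cytoplasmic (23.7%), and the 9 calls above were among them.

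The runs did not share one direction. The median member stood at −0.43 in run 5, where 50 of 53 were on the cytoplasmic side, at 0.11 in run 6, and at 0.47 in run 7, where 45 of 53 were on the nuclear side. Run 5 held all 4 short-fragment cytoplasmic libraries and run 7 held 8 of the 10 short-fragment nuclear libraries. Over the runs 47 members changed sign, and Rpl3l, Rpl5, Rpl6 and Rpl7 were cytoplasmic and Rps2 and Rps14 nuclear in all 3. Rps2 stood at 0.16, 0.32 and 0.12 and Rps14 at 0.01, 0.42 and 0.58 in runs 5, 6 and 7. Rps15 stood at −0.14, 0.42 and 0.76 and Rpl41 at −0.47, 0.51 and 1.55, a spread wider than their standard errors above. Without run 5 the calls were 35, all nuclear, without run 6 they were 2, and without run 7 they were 1 nuclear and 15 cytoplasmic.

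**Figure D4:**
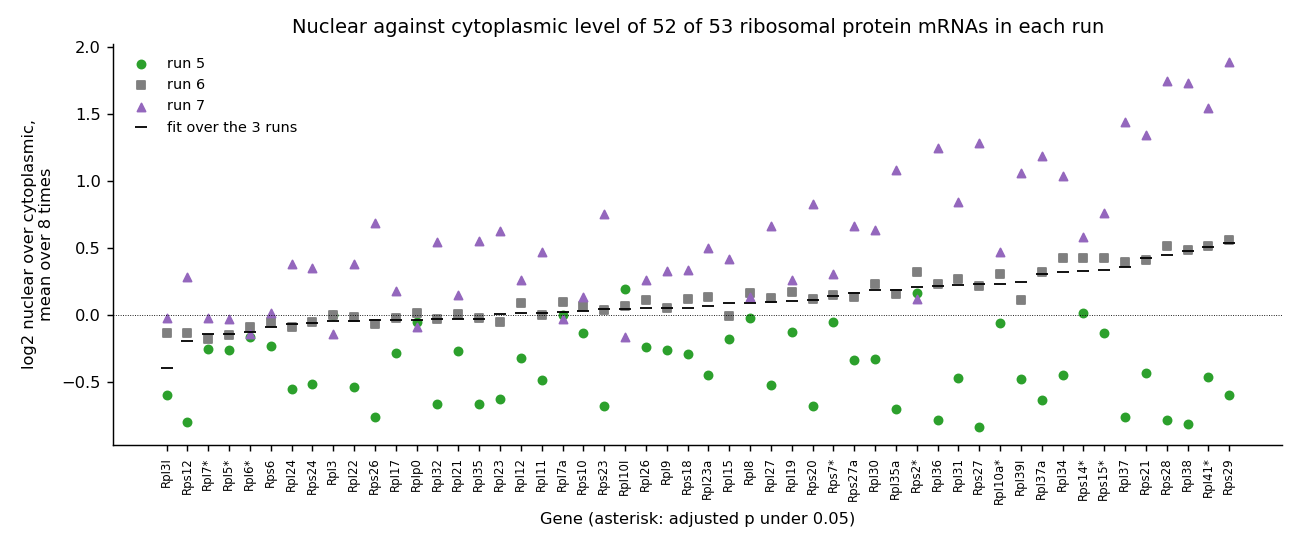
Log2 ratio of nuclear to cytoplasmic level, as the mean over 8 times, of 52 of the 53 members (vertical axis), with 1 point per run and the fitted value as a bar, in order of the fitted value (genes on the horizontal axis). Run 7 lies mostly above and run 5 mostly below 0, and the spread between runs is widest for short mRNAs such as Rps29 and Rpl38 and narrow for Rpl6.

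Whether the fractions changed differently over 96 h was tested by the interaction of fraction and time. No member was called, 3 had an unadjusted p under 0.05 (Rpl7a, Rps6 and Rpl6), and of all genes 0.0% were called (814 at an unadjusted p under 0.05, and none by DESeq2 among the members). All 53 members had a positive value, with a median of 0.33, which is the smaller fall in nuclear RNA, and with the long-fragment libraries the median was 0.16 and 43 of 53 were positive. Rplp0 stood at 0.10 ± 0.15 and Rpl10l at 0.23 ± 0.25. Both lay within 1 standard error of no difference.

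Total RNA gave all chromosomes and included the other stalk genes. In the 4 single-end libraries, replicates 1 and 2 at 0 and 96 h, all 78 tested members were lower at 96 h, at a median log2 change of −0.75 against −0.01 over all genes. Only Rpl10l passed the test (13.2% of all genes were called lower), and 7 members had an unadjusted p under 0.05. With the replicate number as a block, 69 of the 78 were called lower (22.8% of all genes) at a median of −0.78. The study's methods correct total RNA for batches of a first replicate, a second replicate and replacement samples. They do not tie these batches to the replicate numbers used here. DESeq2 called 4, namely Rpl10l, Rpl39l, Rps20 and Rpl12. Rpl10l read 337 and 214 CPM at 0 h and 16.0 and 11.4 at 96 h, and fell by 4.34 ± 0.37 (edgeR's quasi-likelihood test, Benjamini-Hochberg adjusted p = 0.0019). The spread between the 2 replicates was large for the others. Rplp0 read 4281 and 2152 CPM at 0 h and 2374 and 1212 at 96 h, Rplp1 3922 and 1769 and then 1693 and 891, and Rplp2 1537 and 852 and then 917 and 532. For Rplp0 and Rplp2 the groups overlapped, and for Rplp1 they did not. None of the 3 passed, at −0.85 ± 0.50, −1.14 ± 0.52 and −0.72 ± 0.43, and with the block all 3 did, at −0.85 ± 0.10, −1.11 ± 0.11 and −0.72 ± 0.12. In each stalk gene replicate 1 was above replicate 2 at both times, and both replicates fell.

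The paralog pairs showed where the partners parted in total RNA. Rpl10l fell by 4.34 while Rpl10 stood at −0.21 ± 0.28, a value that turns with the counting, since Rpl10 read 71.3 and 56.5 CPM at 0 h against 817 in the paired-end library and was called higher when summed with its copies (1.48 ± 0.43). Rpl39l stood at −2.34 ± 0.91 and Rpl39 at −0.56 ± 0.41, and Rpl3l at −1.26 ± 0.76 and Rpl3 at −0.67 ± 0.37. Rps27l, a target of p53, stood at −0.29 ± 0.40 and Rps27 at −0.67 ± 0.43. These differences between partners were not tested. The lowest other values were those of Rps13 (−1.50 ± 0.62), at 2.64 CPM or less in these libraries, and among the highest were those of Rpl9 (−0.41 ± 0.55) and Rpl35 (−0.44 ± 0.44). Leaving out the replicate 2 library of 0 h gave 5 calls, leaving out the replicate 1 library of 96 h gave 2, and either of the others 1. The median moved to −0.33 without the 0 h library of replicate 1, −0.37 without the 96 h library of replicate 2, −1.06 without the 0 h library of replicate 2 and −1.16 without the 96 h library of replicate 1.

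All 14 total RNA libraries, fitted with the sequencing set as a term, called 25 of 79 members lower at 96 h (20.7% of all genes), at a median of −0.80, among them Rpl10l, Rpl39l and Rplp1. Without the near-equal 36 h and 48 h libraries the count was 4. In this fit Rpl10l was first called at 36 h, while Rpl12, a protein of the stalk base, was called from 24 h. In the paired-end libraries of replicate 3, Rpl10l read 158 CPM at 0 h, 144 at 12 h, 152 at 24 h, 84.6 at 36 h and 46.6 at 48 h, and Rplp0 read 1409, 1108, 1052, 930 and 813. In the single-end libraries, replicate 1 at 0 and 96 h, Rpl10l read 337, 253, 270, 142, 135, 35.7 and 16.0 CPM at 0, 6, 24, 36, 48, 72 and 96 h. Its level at 24 h was thus close to that at 6 or 12 h in both series, and the decline followed from 36 h.

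**Figure D5:**
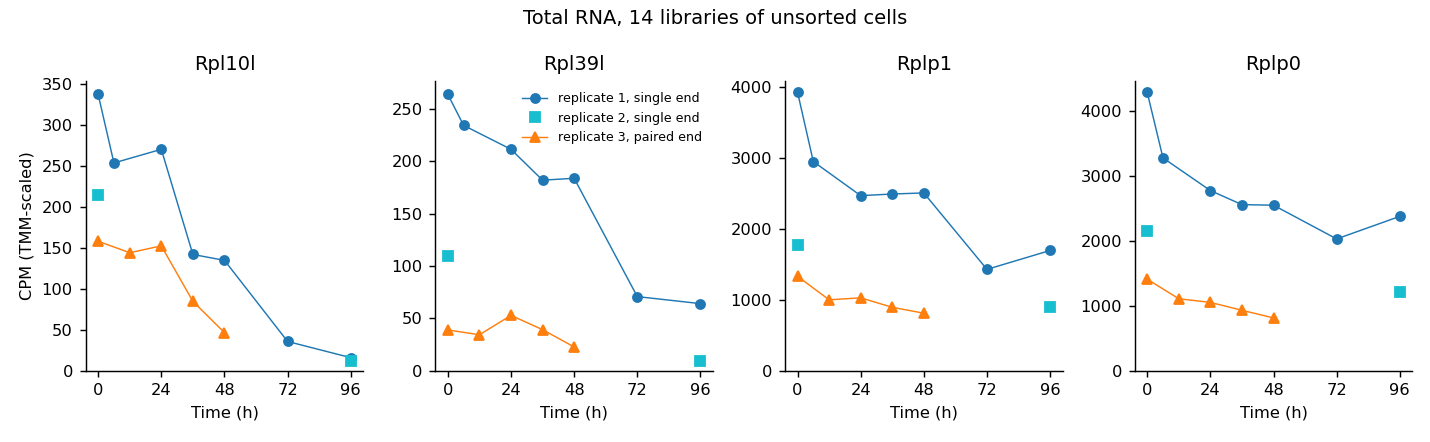
CPM of Rpl10l, Rpl39l, Rplp1 and Rplp0 in the 14 total RNA libraries of unsorted cells (vertical axes from 0) against time in hours (horizontal axes), with lines for replicates 1 and 3 and squares for replicate 2. Rpl10l declines to 16.0 and 11.4 CPM at 96 h, and the levels of the other genes differ between replicates at the same time.

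The total RNA tables also differed in how reads were shared between members and their pseudogenes. A copy was found for 69 members, 468 copies in all, and copies held 34.0 to 35.7% of the counts of members and copies in the single-end libraries, 7.07 to 7.46% in the paired-end libraries and 13.9 to 17.5% in the fractions. At 0 h 6 members stood under 0.1 of their paired-end level in the single-end libraries and 16 under 0.5. Rps12 was listed at 0 in every single-end library and read 1274 CPM at 0 h in the paired-end set, and Rps13 read 2.10 and 2.64 against 325 CPM. When members were summed with their copies, an alternative chosen after seeing the data, Rpl10 was called higher in total RNA. Rpl10l was again the only one called lower. The Rpl10 copy Rpl10-ps1 went from a mean of 52.4 to a mean of 266 CPM there, scaled by library totals. At 0 h the replicates were far apart, with all copies of Rpl10 together at 0.955 CPM in replicate 1 and 105 in replicate 2. In the fractions, which did not list Rpl10, Rpl10-ps1 stood at 728 CPM at 0 h and 594 at 96 h in the cytoplasm. Values of members with copies are therefore uncertain in level, above all in the single-end libraries.

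In sorted cells the members differed little between XEN and ECT when scaled by library totals, with 1 library of each and hence no test. Of the 76 members with enough counts none was past 1.5-fold, while 44.6% of the 15150 genes kept were, and the median log2 ratio of XEN to ECT was 0.08 for the members and −0.30 for all genes. The extremes were Rpl36 (455 CPM in XEN, 330 in ECT, log2 0.46), Rpl39 (213 and 156, 0.45) and Rps27l (271 and 200, 0.44) on the XEN side and Rpl5 (28.3 and 39.5, −0.48), Rps23 (213 and 278, −0.38) and Rpl36a (189 and 217, −0.20) on the ECT side. The sorted libraries were single-end too, and Rpl5 was among the members under 0.1 of their paired-end level in such libraries, so its value can reflect how reads were divided with its copies. The stalk genes stood at 0.25 for Rplp0 (1920 and 1611 CPM), 0.12 for Rplp1 (1396 and 1284) and 0.20 for Rplp2 (668 and 580). Rpl10l was low in both, at 12.9 CPM in XEN and 12.5 in ECT, and so was Rpl39l, at 48.5 and 47.7. Of 19 XEN markers, 12 were past 1.5-fold higher in XEN and 2 in ECT (median log2 1.18). Of 17 ECT markers, 14 were that much higher in ECT and 0 in XEN (median −2.94). Gata6 read 489 CPM in XEN and still 142 in ECT, and Sox17 299 and 131. How far the library titled ECT held XEN cells was not tested. With TMM scaling, which moved all genes to a median of −0.02, 10 members were past 1.5-fold (45.7% of all genes), all on the XEN side, at a median of 0.38. With library totals 6 members were at least 25% higher in XEN and 2 in ECT (63.3% of all genes were that far apart), and with TMM 55 were higher in XEN and 0 in ECT (66.4%). The direction of single members thus depended on the scaling. Relative to the median of all genes, the median of the members lay on the XEN side, by 0.39 with library totals and 0.40 with TMM. A change of scaling shifts all genes by nearly the same amount, so the likeness of these 2 values is no separate support.

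The other genes of the ribosome's supply moved to different degrees in cytoplasmic RNA at 96 h, when 29.4% of all genes were called lower. Of 7 tested ribosomal proteins whose symbols fell outside the rule, such as Rack1 (−0.73 ± 0.08), 6 were lower, at a median of −0.73. Of 50 ribosome biogenesis genes, which transcribe and process rRNA, 35 were lower and 1 higher (median −0.47), with Nol6 (−1.16 ± 0.11) and the polymerase I factor Rrn3 (−0.91 ± 0.11) lowest. Other mRNAs listed as of the TOP kind, most of them of translation, had 14 of 19 lower and 1 higher (median −0.29), with the poly(A)-binding protein gene Pabpc1 at −1.08 ± 0.07, and the one called higher was Vim, the intermediate filament gene (0.86 ± 0.13). The mitochondrial ribosomal proteins had 28 of 67 lower and 2 higher (median −0.33). Regulators had 9 of 19 lower and 4 higher, with the mTOR inhibitor Deptor at −2.18 ± 0.18, Trp53 at −1.32 ± 0.10, the Myc antagonist Mxd4 at 2.73 ± 0.11 and Myc itself at 3.34 ± 0.20. In total RNA, 25 of 60 biogenesis genes (median −0.81), 2 of 25 other TOP genes (−0.54), 11 of 77 mitochondrial members (−0.57) and 4 of 21 regulators (−0.04) were lower, against 13.2% of all genes.

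Summed levels of cell type markers changed over the same time. The summed level of the listed markers in cytoplasmic RNA went from 5640 to 5807 CPM over the 0 h libraries to 227 to 307 at 96 h for 10 naive pluripotency genes. It went from 1383 to 1616 up to 29584 to 44528 CPM for 16 XEN genes, and from 673 to 744 up to 1131 to 1192 CPM for 11 ECT genes, whose sum in total RNA was 525 to 538 at 0 h and 519 to 1093 at 96 h. Trophoblast markers (6 listed) went from 166 to 174 up to 596 to 902 CPM, and mesoderm markers (4 listed) stood at 17.4 to 18.7 and then 15.3 to 20.5 CPM. Fibroblast markers (8 listed) went from 3.75 to 4.63 up to 210 to 240 CPM, with none near 0 at 96 h. The part of these shifts in the falls of the ribosomal protein mRNAs was not tested.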

How the data were processed

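Poly(A) RNA of nuclear and cytoplasmic fractions, of unsorted cells and of sorted cells was sequenced. The authors deposited, for each gene and library, expected counts and TPM, made per the labels with RSEM on mm10. RSEM 1.2.28 with Bowtie2 2.2.6 was used for the single-end libraries (replicates 1 and 2 and sorted cells), and Trimmomatic 0.38, STAR 2.6.1a and RSEM 1.3.1 for the fractions and replicate 3. RSEM divides reads that fit several genes among them, so a member and its copies share an uncertain count. Groups came from sample titles, and the members and lists were chosen with earlier results of these data known.

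Expected counts were rounded. Genes were kept where the mean over all libraries of a fit exceeded 10 counts, and the test was that of edgeR 4.0.16 (quasi-likelihood test, TMM scaling, R 4.3.3), 1 fit for the 48 fraction libraries and 1 for 4 total RNA libraries, with Benjamini-Hochberg adjustment over all genes tested and a threshold of 0.05. Printed CPM are TMM-scaled, except for sorted cells and for copies in total RNA, which were scaled by library totals. The sign ± gives 1 standard error unless named SD. Groups held 2 or 3 libraries. The spread behind the p-values was that within groups, estimated over all libraries of a fit and with information shared between genes. It was not taken from the compared libraries alone. TPM were used for levels between genes only. Fragment lengths came from the deposited effective lengths. Copies were annotated pseudogenes with at least 50% of their own 31-base words found in a member, or with a symbol naming a member. Each was given to 1 member only. Scripts were tested on simulated data.

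Named were the 5 lowest and 5 highest members of each comparison, members called against the majority, the stalk genes, paralog pairs, members called between fractions, and the 2 lowest and 2 highest genes of lists where space allowed. The values of 1 member that the rule names are not reported here. Other genes, such as Rpl38, Rpl12, Rps28 and Rack1, were named after their values were seen. Per the labels, equal run numbers of the fractions mark a shared differentiation run. The deviations of same-run cytoplasmic and nuclear libraries of 1 time correlated at a median of −0.05, against 0.02 for different runs. In total RNA the study's methods correct for replicate batches without tying them to the numbers used here. The deviations of replicates 1 and 2 at 0 and 96 h correlated at 0.39. Alternatives were DESeq2 1.42.0, other scaling, filters, fits, blocks and left-out libraries. Those on fragment length, copies and the near-equal pair were chosen after seeing the data. Other sequencing of the series was not used here.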

Additional observations from a re-analysis of the deposited data

How the results depend on the processing

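The direction of the members' median kept its sign in cytoplasmic, nuclear and total RNA at 96 h under every alternative run. The count of cytoplasmic members called lower (42) ran from 26 to 49 with 1 run left out and moved by less than 1.5 times otherwise. The nuclear count (21) was 47 with no filter on low counts, 37 with long-fragment libraries only and 33 with mean fragment length as a term, and 10 to 27 with 1 run left out. Members called between the fractions (9) numbered 26 with no filter, 27 with long-fragment libraries, 26 with the fragment length term, 16 with effective length as an offset and 2 to 35 with 1 run left out, and their median changed sign among these. The difference in change between the fractions gave 0 calls, but 5 with no filter. In total RNA (1 call lower) DESeq2 gave 4, all 14 libraries with the sequencing set as a term 25, that fit without the near-equal pair 4, and leaving out 1 library 1 to 5, where the lone library left in a group is assumed to vary like the other group. In sorted cells (0 past 1.5-fold) 8 were at least 25% apart, 6 higher in XEN and 2 in ECT, while with TMM 10 were past 1.5-fold and 55 at least 25% apart, all higher in XEN. The cause of each change was not tested. The alternatives on fragment length, effective length, copies and the near-equal pair were chosen after seeing the data, as was the 36 h nuclear comparison without 1 library.

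With a replicate block by run the counts were 43 in cytoplasmic RNA, 22 in nuclear RNA, 10 between fractions and 0 for the difference in change. In total RNA a replicate block gave 69 of 78 members lower against 1 without it. Depth limits Rpl3l, which stayed under 8 CPM in every fraction library.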
